A study of Drosophila melanogaster with 6 samples.

Results

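Neuronal and synaptic genes of Drosophila larvae were examined as a list of 40 genes, taken by symbol and grouped by what their proteins do in a neuron. A probe set with 1 gene symbol was found for 33 of them, among 10844 genes in all, and the brightest probe set over the 6 arrays stood for each gene. The remaining 7, VAChT, Syt1, Syx1A, Snap25, cpx, comt and Fas2, were not analysed here. Of the 33 measured genes, 11 lie on the X chromosome and 22 on the autosome arms.

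RNA was measured in 3 arrays of mle/mle larvae and 3 arrays of wild type larvae, all at the third larval instar. The mle/mle larvae were homozygous for a mutation of maleless whose allele the labels do not name, were labelled male, and were separated from heterozygous mle/T(2-3)Tb larvae. The wild type larvae are labelled cancon S, a strain name spelled as submitted, and their sex is not given. A strain or sex difference therefore cannot be told apart from the mutation, and the number of larvae per array is not stated, so p-values measure the spread between these RNA samples.

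Neurons carry signals along the axon through voltage-gated sodium, calcium and potassium channels, and pass them on at synapses where vesicles fuse with the membrane through the SNARE proteins. ELAV-type RNA-binding proteins set neuron-specific splicing. The maleless protein is an RNA helicase that belongs to the male dosage compensation complex, which raises transcription from the single male X, and it is also needed for normal splicing of the edited transcript of para, the neuronal sodium channel. The comparison of X-linked with autosomal neuronal genes addresses the first of these roles. A probe set summarises the signal of a transcript and does not show which exons are joined, so splicing of para was not measured.

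The gene mle itself read 5.32, 5.43 and 5.28 in mle/mle and 5.38, 5.56 and 5.40 in wild type, on the log2 scale of the deposited RMA signals. The groups overlapped and limma made no call on the difference of -0.10 (95% interval -0.29 to 0.09, adjusted p = 0.9997). All 6 signals were dimmer than the lower quartile of their array, where RMA compresses changes, and the allele is not named, so the genotype is not checked by this probe set. Correlations between arrays lay between 0.987 and 0.997.

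None of the 33 neuronal genes differed between mle/mle and wild type larvae past the test. Limma called 8 of 13966 probe sets (0.0573%) and 0 of 33 neuronal genes at an adjusted p under 0.05, where 0.0646% of all genes were called. Also 0 of 33 had an unadjusted p under 0.05, where 4.63% of all genes did. The fitted log2 change was above 0 in 18 genes and below 0 in 15, where 46.4% of all genes were below 0, with a median of 0.005 against 0.007 over all genes. In 25 of the 33 it was smaller than 0.1 in size, against 72.3% of all genes. Groups did not overlap in 2 genes, Nrg and shi, against a background of 8.63%. For the 31 genes other than ple and Ddc, the 95% intervals of the change all lay between -0.48 and 0.39 on the RMA scale. Each interval holds for its own gene, so this range is not a joint bound on the 31 genes. RNA came from larvae and not from sorted neurons, so fewer neurons and less RNA per neuron cannot be told apart. The tables hold no detection call, and 6 of the 33 (para, slo, nAChRalpha1, nAChRbeta1, Syn and Rab3) were in the dimmest quartile of every array. Of all 10844 genes, 2096 were.

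**Figure D1:**
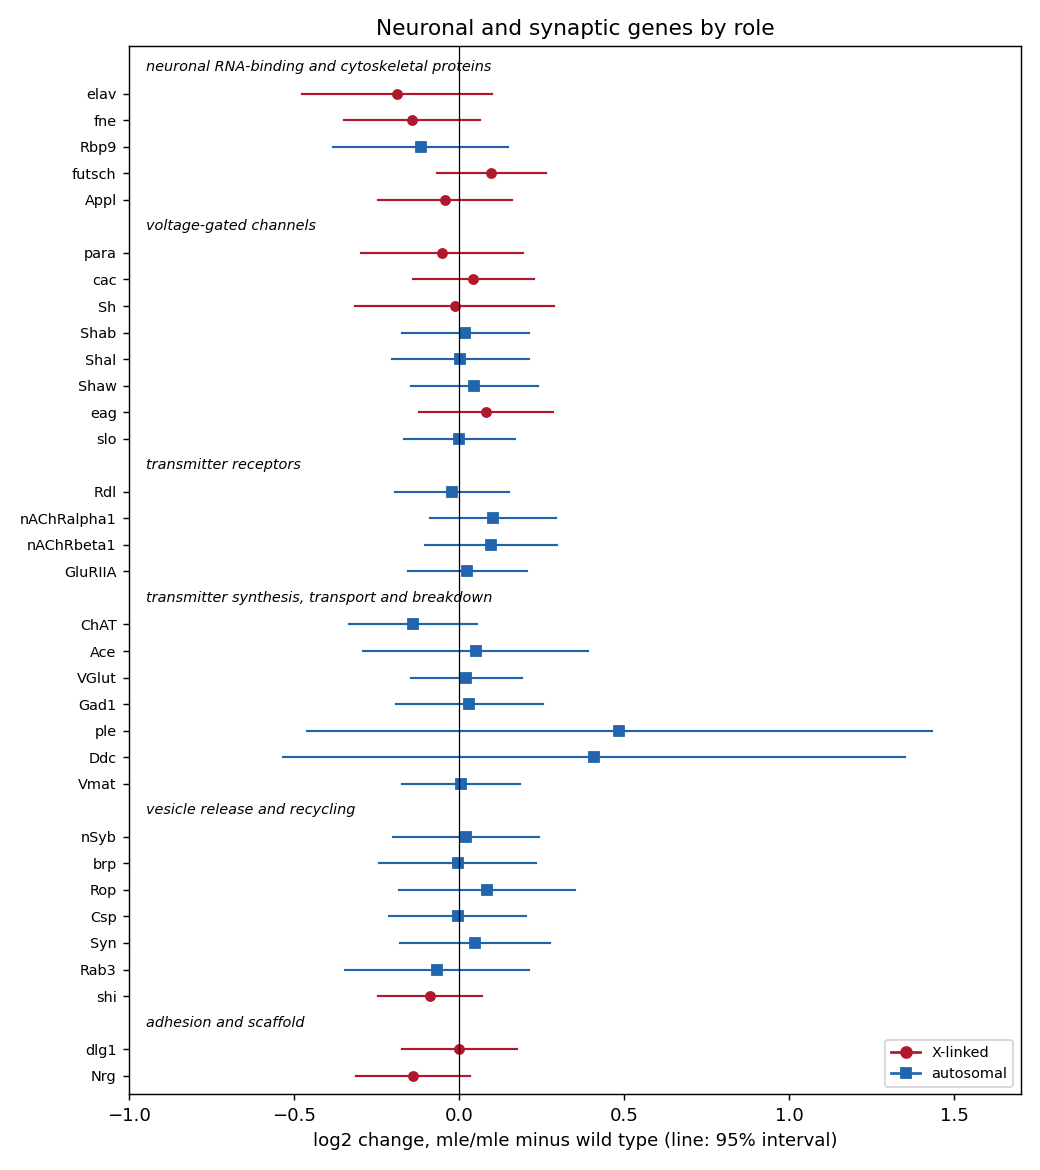
Fitted log2 change, mle/mle minus wild type, of the 33 neuronal and synaptic genes in 6 role groups, with X-linked genes as red circles and autosomal genes as blue squares; lines are 95% intervals from limma with 3 arrays per group. All intervals cross 0, and those of ple and Ddc are the widest.

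Genes for neuronal RNA-binding and cytoskeletal proteins had a median change of -0.12, with 4 of 5 below 0 and none past the test. The gene elav, whose RNA-binding protein is the standard marker of differentiated neurons, read 5.80, 6.21 and 6.16 in mle/mle and 6.21, 6.13 and 6.39 in wild type. Replicate 1 of mle/mle was the lowest array, and the other two mle/mle arrays overlapped with wild type. The difference was -0.19 (95% interval -0.48 to 0.10, unadjusted p = 0.17 and adjusted p = 0.9997 by limma).

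The paralog fne, a further ELAV-type protein, read 7.45, 7.67 and 7.67 in mle/mle against 7.66, 7.74 and 7.83 in wild type. Here too mle/mle replicate 1 was lowest, and the groups overlapped by a narrow margin, with a change of -0.14 (95% interval -0.35 to 0.06). The third ELAV-type gene, Rbp9 on 2L, changed by -0.12 on its brighter probe set and by -0.17 on its dimmer one. Even the brighter one lay in the dimmest quartile on 5 of the 6 arrays. All 3 ELAV-type genes had a negative fitted change, and none passed the test. Without mle/mle replicate 1 the change was -0.059 for elav, -0.071 for fne and -0.063 for Rbp9. The change of Rbp9 was -0.0033 without wild type replicate 2, -0.0056 with replicate 2 of both groups left out and -0.21 without wild type replicate 1.

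The microtubule-associated protein gene futsch read 7.74, 7.66 and 7.60 in mle/mle and 7.53, 7.58 and 7.60 in wild type, a change of 0.10. Replicates 1 and 2 of mle/mle were above all wild type arrays, and replicate 3 lay just below the highest of them. Its other probe sets changed by 0.01 and 0.13. The gene of the fly amyloid precursor protein, Appl, read 7.87, 7.96 and 7.81 in mle/mle against 7.85, 8.07 and 7.86 in wild type, with overlapping groups and a change of -0.04.

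All 8 voltage-gated channel genes had changes smaller than 0.1 in size, between -0.05 and 0.08. The sodium channel gene para read 5.22, 5.16 and 5.13 in mle/mle and 5.04, 5.45 and 5.17 in wild type. Its wild type arrays spread more widely than its mle/mle arrays and enclosed them, and the change of -0.05 had a 95% interval of -0.30 to 0.19 (adjusted p = 0.9997 by limma). The signal of para was dim on all arrays, so this interval holds for the compressed RMA scale.

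The presynaptic calcium channel gene cac read 6.07, 6.19 and 6.26 in mle/mle against 6.11, 6.20 and 6.09 in wild type, a change of 0.04. The A-type potassium channel gene Sh read 6.34, 6.53 and 6.45 in mle/mle against 6.22, 6.74 and 6.41 in wild type, a change of -0.01. In both genes the groups overlapped, and the other 3 probe sets of Sh changed by 0.06, 0.01 and 0.01. The potassium channel gene eag read 6.50, 6.70 and 6.51 in mle/mle and 6.49, 6.58 and 6.39 in wild type, a change of 0.08 with overlapping groups. The 3 autosomal relatives of Sh, which are Shab, Shal and Shaw, changed by 0.02, 0.00 and 0.04. The calcium-activated potassium channel gene slo had a 95% interval of -0.17 to 0.17.

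Of the 4 transmitter receptor genes, the nicotinic acetylcholine receptor subunits had the largest changes. The subunit gene nAChRalpha1 read 4.34, 4.19 and 4.33 in mle/mle and 4.23, 4.26 and 4.07 in wild type, a change of 0.10. The subunit gene nAChRbeta1 read 3.91, 3.98 and 3.81 in mle/mle and 3.88, 3.86 and 3.67 in wild type, also a change of 0.10. Both were dim on all arrays and overlapped between groups. The GABA receptor gene Rdl, which forms the main fast inhibitory receptor of the fly nervous system, changed by -0.02, and GluRIIA, a glutamate receptor subunit of the larval neuromuscular junction, changed by 0.02.

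Among the 7 genes of transmitter synthesis, transport and breakdown, those of dopamine synthesis varied far more between arrays than any other gene of the list. The gene ple encodes tyrosine hydroxylase, the rate-limiting enzyme of dopamine synthesis, and Ddc encodes the decarboxylase that follows it. Both enzymes also act in the epidermis, where dopamine is a precursor for hardening and darkening of the cuticle. The within-group SD was 0.71 for ple and 0.70 for Ddc, against 0.23 for the gene with the next largest and a median of 0.11 over the 33 genes.

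The signal of ple was 9.71, 10.995 and 9.97 in mle/mle and 9.89, 8.94 and 10.38 in wild type. Replicate 2 was the highest array of mle/mle and the lowest of wild type. The signal of Ddc was 10.07, 10.57 and 10.32 in mle/mle and 10.41, 8.80 and 10.53 in wild type, with the same arrays at the extremes. The fitted changes were 0.48 for ple (95% interval -0.46 to 1.43) and 0.41 for Ddc (95% interval -0.54 to 1.35), neither past the test. They rest on replicate 2, whose difference was 2.05 for ple and 1.76 for Ddc. The other same-numbered pairs differed by -0.18 and -0.42 for ple and by -0.33 and -0.21 for Ddc. Without mle/mle replicate 2 alone, the change was 0.10 for ple and 0.28 for Ddc. Without wild type replicate 2 alone, it was 0.086 for ple and -0.15 for Ddc. With replicate 2 of both groups left out, the changes were -0.30 for ple and -0.27 for Ddc (adjusted p = 0.47 and 0.27 by limma). In that setting limma called 0 of the 33 genes, where 3.52% of all genes were called, and 2 of them, elav at -0.32 and Ddc, had an unadjusted p under 0.05, where 14.4% of all genes did.

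ChAT, the enzyme that makes acetylcholine, read 6.39, 6.50 and 6.39 in mle/mle and 6.49, 6.70 and 6.50 in wild type. The highest mle/mle array lay level with the lower wild type arrays, and the change was -0.14 (95% interval -0.34 to 0.05). Its second, dimmer probe set changed by -0.17. The acetylcholine-degrading enzyme gene Ace changed by 0.05 and lay in the dimmest quartile on 5 of the 6 arrays. The vesicular glutamate transporter gene VGlut changed by 0.02, the GABA-making enzyme gene Gad1 by 0.03 and the vesicular monoamine transporter gene Vmat by 0.005. Markers of cholinergic, glutamatergic and GABAergic neurons were therefore each measured without a call in either direction.

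**Figure D2:**
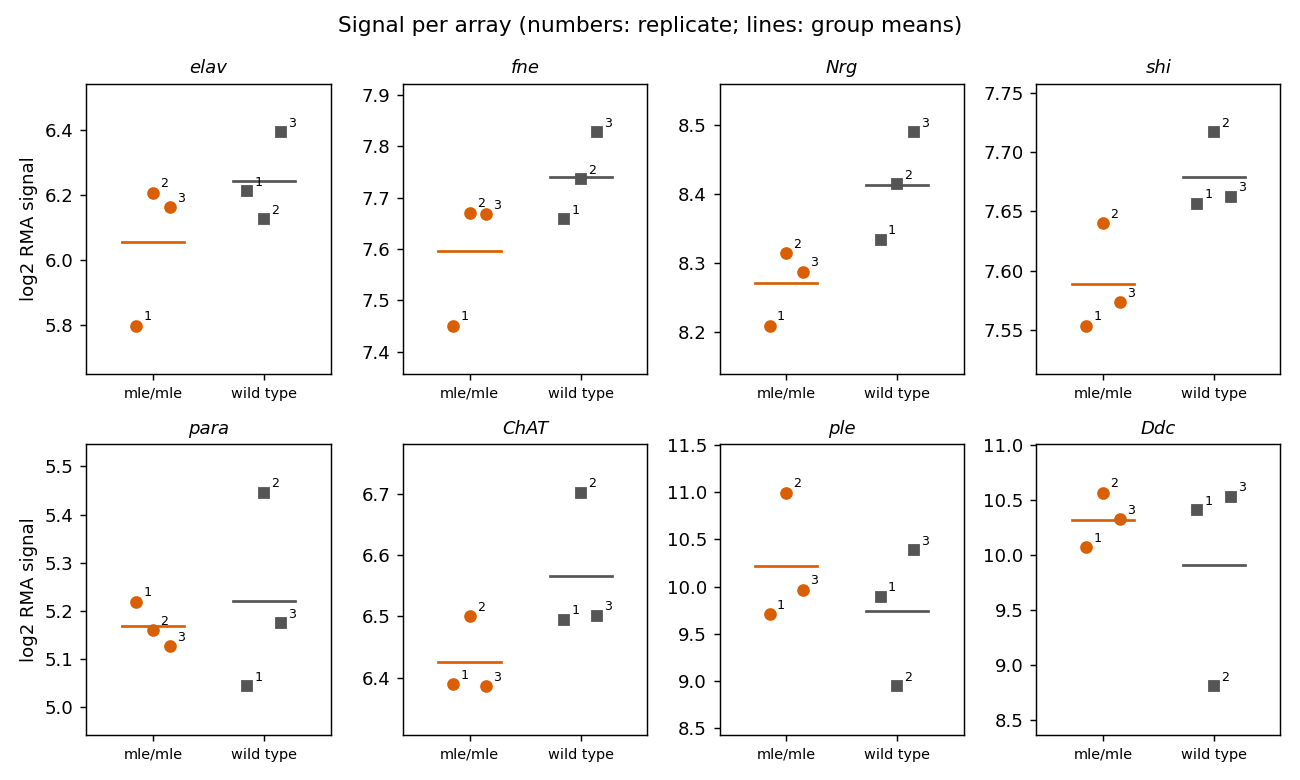
Log2 RMA signal of elav, fne, Nrg, shi, para, ChAT, ple and Ddc on each array, with mle/mle as circles and wild type as squares, replicate numbers beside the points and lines at the group means; each panel has its own scale. Groups do not overlap for Nrg and shi, and replicate 2 lies at opposite extremes of the groups for ple and Ddc.

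All 7 measured genes of vesicle release and recycling had changes smaller than 0.1 in size. The dynamin gene shi, whose protein pinches off vesicles during recycling in neurons and in other cells, read 7.55, 7.64 and 7.57 in mle/mle against 7.66, 7.72 and 7.66 in wild type. All mle/mle arrays lay below all wild type arrays, by a small margin, and the change of -0.09 had a 95% interval of -0.25 to 0.07 (unadjusted p = 0.22 and adjusted p = 0.9997 by limma). The gene Rop, a Sec1/Munc18-type partner of syntaxin, read 8.33, 8.42 and 8.51 in mle/mle and 8.29, 8.14 and 8.57 in wild type, a change of 0.08 with overlapping groups.

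The vesicle SNARE gene nSyb changed by 0.02 and the active zone scaffold gene brp by -0.0046. The vesicle chaperone gene Csp changed by -0.0055, the synapsin gene Syn by 0.05 and the vesicle GTPase gene Rab3 by -0.07. For brp, the other 2 probe sets changed by -0.02 and -0.01. None of the 3 genes nSyb, brp and Syn, all largely restricted to neurons, had 95% bounds beyond -0.24 or 0.28.

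Both measured adhesion and scaffold genes are X-linked and are also active in epithelia. The cell adhesion gene Nrg, whose protein acts in axon growth and in septate junctions, read 8.21, 8.31 and 8.29 in mle/mle and 8.33, 8.41 and 8.49 in wild type. All mle/mle arrays were below all wild type arrays, and the change was -0.14 (95% interval -0.31 to 0.03). With an unadjusted p of 0.095 and an adjusted p of 0.9997 by limma, Nrg had the smallest p of the 33 genes and did not pass. The synaptic scaffold gene dlg1 read 5.93, 6.05 and 5.93 in mle/mle and 5.97, 5.90 and 6.03 in wild type, with overlapping groups and a 95% interval of -0.17 to 0.17, while its dimmer probe set changed by -0.16.

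X-linked neuronal genes had slightly lower fitted changes than autosomal ones. The fitted change was below 0 in 8 of 11 X-linked genes, against 62.2% of all X genes, and in 7 of 22 autosomal genes, against 43.3% of all autosomal genes. The median change was -0.04 over the X-linked genes and 0.02 over the autosomal genes, a gap of -0.064. Over all genes the medians were -0.02 for 1763 X genes and 0.01 for 8983 autosomal genes. No p is given for this gap, since the genes were chosen with earlier results of these data known. Each single X-linked gene had a 95% interval within -0.48 and 0.29.

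Per array, after centring each gene on its mean, the X-linked minus the autosomal median was -0.072, -0.004 and -0.005 in mle/mle and -0.012, 0.007 and 0.021 in wild type. The mle/mle values averaged -0.027 ± 0.039 and the wild type values 0.005 ± 0.017 (SD, n = 3 each). The groups overlapped, with mle/mle replicate 1 farthest from the rest. Over all X and autosomal genes the same values were -0.033, 0.017 and -0.041 in mle/mle and 0.007, 0.044 and 0.010 in wild type. The lowest neuronal value, -0.072, lay below all of these. The all-gene values averaged -0.019 ± 0.031 in mle/mle and 0.020 ± 0.021 in wild type (SD, n = 3 each). The difference between group means was -0.032 for the neuronal genes and -0.039 for all genes. Between same-numbered arrays, mle/mle minus wild type was -0.060, -0.011 and -0.026 for the neuronal genes and -0.040, -0.027 and -0.051 for all genes, below 0 in all 3 pairs of both sets. The gap of the fitted medians was -0.015 without wild type replicate 2, -0.111 without wild type replicate 1 and -0.008 with replicate 2 of both groups left out.

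**Figure D3:**
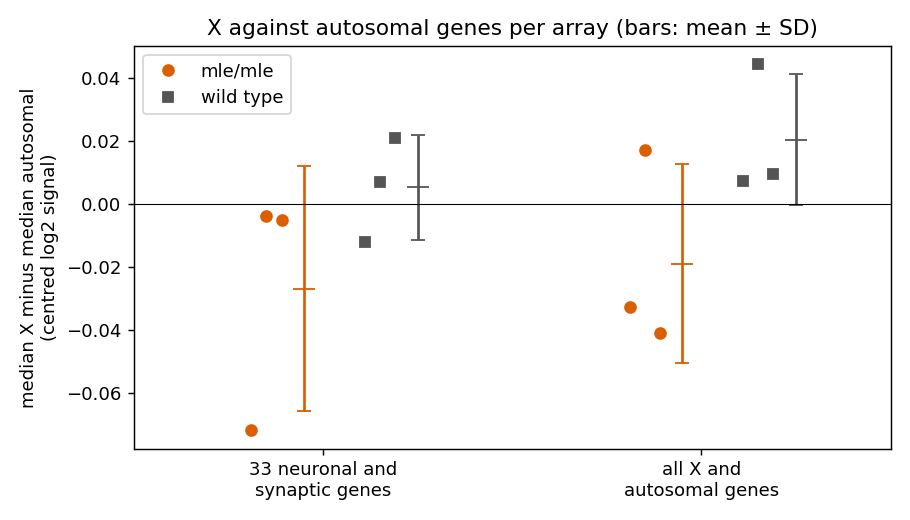
Median of X-linked minus median of autosomal genes on each array, on the log2 scale centred per gene, for the 33 neuronal and synaptic genes and for all genes; circles are mle/mle arrays, squares wild type arrays, and bars the mean ± SD of 3 arrays. The groups overlap for both sets, and the lowest value is that of mle/mle replicate 1 for the neuronal genes, at -0.072.

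Array medians of the whole list differed more between replicate 2 and the other replicates than between mle/mle and wild type. The median centred signal of the 33 genes was -0.028, 0.047 and -0.020 in mle/mle and -0.025, 0.065 and -0.016 in wild type. Replicate 2 was the highest array in both groups, and the group means were -0.0003 ± 0.041 in mle/mle and 0.008 ± 0.050 in wild type (SD, n = 3 each). Within mle/mle, replicate 2 was the highest array in 21 of the 33 genes, within wild type in 20, and in both groups in 11. The shares of all genes are not given here, so these counts only describe the list. Over all genes the same medians were -0.0003, 0.026 and -0.008 in mle/mle and -0.017, -0.015 and 0.011 in wild type. Muscle markers, 11 of 14 measured, stood at 0.095, -0.359 and 0.239 in mle/mle and -0.044, -0.120 and 0.097 in wild type, lowest in replicate 2 of each group. Late larval salivary gland genes, 13 of 15 measured, stood at -0.343, 0.072 and -0.351 in mle/mle and 0.225, 0.224 and 0.216 in wild type. Their part in the neuronal values was not tested.

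**Figure D4:**
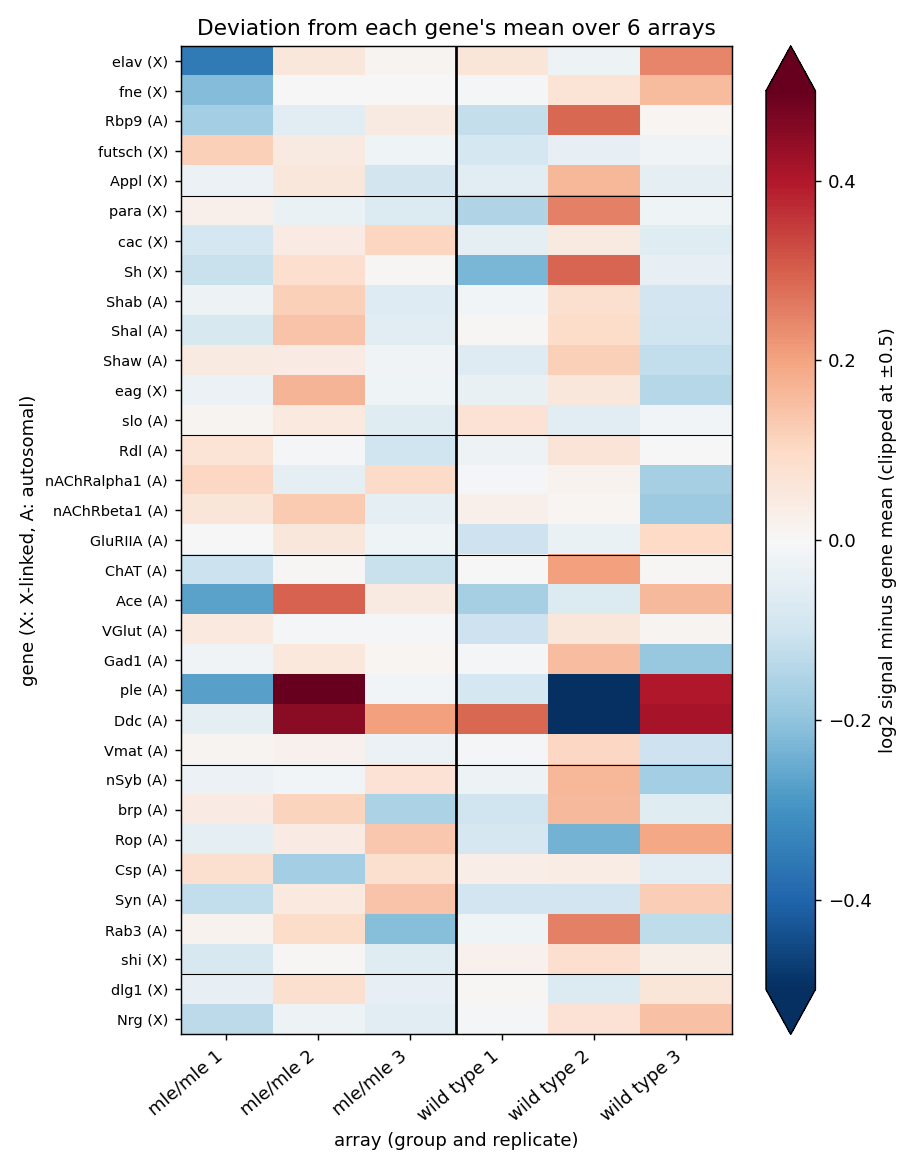
Log2 RMA signal minus the mean over 6 arrays for each neuronal and synaptic gene (rows, by role, with X or A for X-linked or autosomal) on each array (columns, mle/mle left of wild type); colours stop at 0.5 in either direction. The row of ple stands out in replicate 2 of both groups and that of Ddc in wild type replicate 2, at -1.31. In mle/mle replicate 2 Ddc stood at 0.45, near its 0.41 in wild type replicate 3. Replicate 2 is warm for many of the other genes, with a median of 0.047 in mle/mle and 0.065 in wild type.

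In the second deposited table, of PLIER signals from the same arrays, limma again called 0 of the 33 genes, where 0.0369% of all genes were called. The direction was opposite to that of the RMA table in 12 of the 33 genes, against 25.6% of all genes. An unadjusted p under 0.05 was found for 1 of the 33, against 4.6% of all genes. This was ChAT, which changed by -0.33 there (adjusted p = 1.0 by limma). The changes of elav, fne, Nrg and shi were -0.17, -0.13, -0.09 and -0.12, and those of ple and Ddc were 0.58 and 0.40. The change of para was 0.04, but -0.32 within the 4 arrays that share an array code and 0.74 between the other 2. Among PLIER changes, 8 of the 11 X-linked genes and 9 of the 22 autosomal genes were below 0, and the gap of the medians was -0.164. These 8 were not the same genes as in the RMA table: Appl and para were above 0 here, and cac and eag below 0. The PLIER shares and gap over all X and all autosomal genes are not given here, so these values only describe the list.

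**Figure D5:**
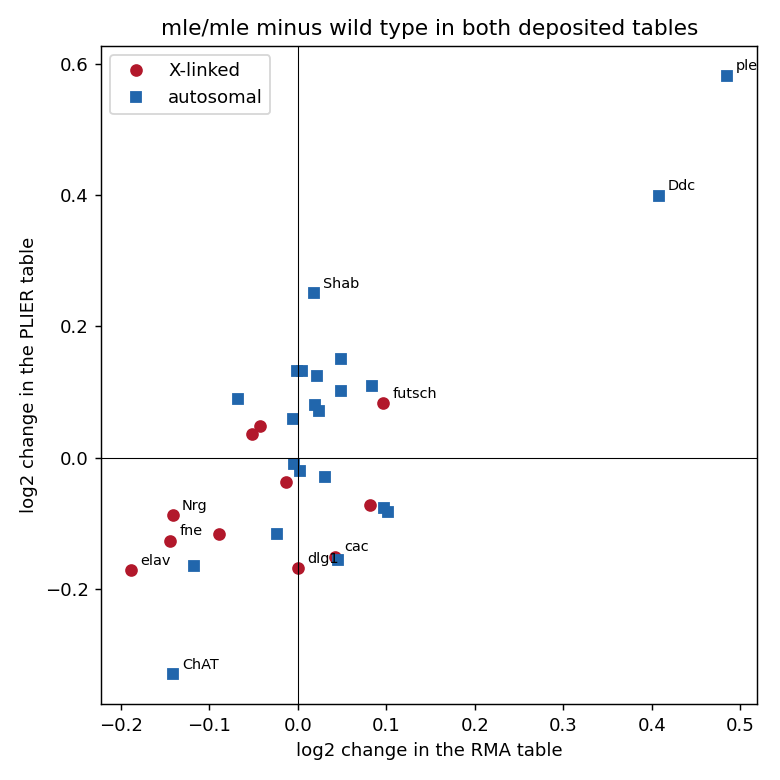
Log2 change, mle/mle minus wild type, of the 33 genes in the RMA table (horizontal) and the PLIER table (vertical) of the same 6 arrays, with X-linked genes as circles and autosomal genes as squares. The genes ple and Ddc lie far to the upper right, ChAT is lowest in the PLIER table at -0.33, and most other genes lie near 0 on the horizontal axis.

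A wider set of neuronal genes also held no called gene. Of 104 further genes for release, ion channels, receptors, transmitters and neuropeptides, 87 were measured. The change was above 0 in 47 and below 0 in 40, with a median of 0.008. Limma called 0 of the 87, where 0.0646% of all genes were called. Groups did not overlap in 6 of the 87, against 8.63% of all genes. In the dimmest quartile of every array were 27 of the 87, against 2096 of all 10844 genes. An unadjusted p under 0.05 was found for 2 of the 87, against 4.63% of all genes. Pal1, an enzyme of neuropeptide amidation, read 5.89, 5.59 and 5.64 in mle/mle and 5.11, 5.54 and 5.29 in wild type, with all mle/mle arrays above wild type and a change of 0.39 (adjusted p = 0.78 by limma). It lay in the dimmest quartile on 5 of the 6 arrays, and the same-numbered pairs differed by 0.78, 0.05 and 0.35. In the PLIER table Pal1 changed by 0.79 (adjusted p = 0.20 by limma), again with no call. AP-2alpha, a subunit of the clathrin adaptor that serves endocytosis in all cells, read 6.89, 6.98 and 7.26 in mle/mle and 6.49, 6.49 and 7.03 in wild type, a change of 0.38 with overlapping groups (adjusted p = 0.9997 by limma).

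By list, the median change was 0.007 over 26 release and vesicle genes, -0.02 over 17 ion channel genes, 0.009 over 20 receptor genes and 0.01 over 24 transmitter and neuropeptide genes. The release gene next in p was Sytalpha, a synaptotagmin, at 0.18. It was in the dimmest quartile of every array, and its same-numbered pairs differed by 0.03, 0.47 and 0.05. Among channels the smallest p values belonged to Ih (0.17), a hyperpolarization-activated channel, and Hk (-0.12), a subunit that binds Shaker. Among receptors they belonged to the subunit genes nAChRbeta3 (0.15) and GABA-B-R1 (0.09), and among neuropeptides the second after Pal1 was Ms (-0.16), which encodes myosuppressin. GABA-B-R1 lay in the dimmest quartile on all 6 arrays and Ih on 3 of them.

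Other cells of the larval nervous system and body were read through their markers. Glia markers had a median change of 0.045 with 8 of 13 above 0 and 5 below. Groups did not overlap in 2 of them, nrv2 (-0.16) and wrapper (-0.09), against 8.63% of all genes. The largest change in the glia list was that of e (0.69), which is also a gene of dopamine use in the cuticle. Its same-numbered pairs differed by -0.24, 2.53 and -0.22. Neural progenitor markers had a median change of -0.10 with 9 of 12 below 0, where 46.4% of all genes were below 0. The progenitor gene mira, which sorts fate determinants in dividing neuroblasts, read 6.50, 6.96 and 6.50 in mle/mle and 6.84, 6.98 and 6.86 in wild type, a change of -0.24 with overlapping groups (adjusted p = 0.9997 by limma). Muscle markers had a median of 0.02, the 4 measured epidermis and cuticle markers one of 0.004, and eye and imaginal disc markers one of -0.03. The salivary gland genes had a median of -0.49 with 13 of 13 below 0. None of these lists held a gene past the test over all probe sets, and their part in the values of the neuronal genes was not tested.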

How the data were processed

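The authors deposited a value table of log2 signals, 1 per probe set and array. The tool is RMA according to the submitters' processing notes (version and settings: not given in the sources used here). Also deposited by the authors were log2 PLIER signals, made with an offset of 16 as the file headers read. Those headers give each array's group and an array code, carried by 4 arrays and 2 arrays, but no replicate number.

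After 44 array controls were left out, 13966 probe sets were tested. The two-sided test was eBayes after lmFit (limma 3.58.1, R 4.3.3). Adjustment was by Benjamini-Hochberg over all probe sets, with calls at an adjusted p under 0.05. No filter on dim signals was used in the main comparison. Symbols came from the platform annotation, updated through RefSeq Release 6, which also gave the chromosome arm. Figures used matplotlib 3.10.9.

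The genes, their role groups and the further lists were chosen with earlier results of these data known. Values in every array were given for X-linked genes and for the genes with the largest change in each role group, and for others where a statement rests on them (ChAT, chosen after its values were seen). In the further lists, the genes with the smallest p were named. The titles number the arrays 1 to 3 in both groups. Deviations from group means correlated at 0.17, 0.28 and 0.52 between same-numbered arrays, so the numbers were taken as pairs and used as a block in an alternative fit. The script was tested on simulated data. The number of arrays limits the precision.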

Additional observations from a re-analysis of the deposited data

How the results depend on the processing

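No alternative called any of the 33 neuronal genes; the count of called genes of the list was 0 in all settings with a test, by limma. The count of called probe sets over the whole array was 8, and it was 4 in the PLIER table, 1 there with the array code as a block, 0 within the code of 4 arrays, 453 with replicate 2 of both groups left out, and 0 to 145 when 1 array was left out. With the replicate block there were 6 called probe sets and 0 called neuronal genes. In this balanced design the block cannot move a fitted change, so the gap of -0.064 between X-linked and autosomal medians is not tested by it. An unadjusted p under 0.05 was found for 1 of the 33 genes in the PLIER table (ChAT), with or without the code as a block, and for 2 with replicate 2 of both groups left out (elav at -0.32 and Ddc at -0.27, against 14.4% of all genes). In that setting 3.52% of all genes were called. Of 33 genes, 5 (elav, fne, ChAT, shi and Nrg) kept their direction in every setting that gave them a value. Not all settings could turn a direction. The replicate block, the fit with a variance trend and the dim filter keep the fitted changes of the main comparison. The code block keeps those of the PLIER table, and the other settings reuse the same 6 arrays. The share of all genes that kept their direction is not given here. The dim filter left out elav and ChAT, which thus had 16 settings against 17 for fne, shi and Nrg. Rbp9 turned to 0.21 within the code of 2 arrays.

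The median change of the list was 0.005. It had no stable sign: it was -0.010 in the PLIER table with or without the code as a block, -0.0059 after centring, -0.0016 with replicate 2 of both groups left out, and -0.031 (without wild type replicate 3) to 0.040 (without wild type replicate 2) when 1 array was left out. It was -0.044 within the code of 4 arrays and 0.058 within the code of 2, which has 1 array per group and no test. The gap between X-linked and autosomal medians stayed below 0 in all settings: -0.164 in the PLIER table with or without the code as a block and within the code of 4 arrays, -0.103 within the code of 2, -0.097 over the 15 genes left without the dimmest 40% of probe sets, -0.0081 with replicate 2 of both groups left out, and -0.111 to -0.015 when 1 array was left out. The replicate block, the fit with a variance trend and the centring leave the gap at -0.064 by construction. The same gap over all genes is not given per setting. The cause of the shifts in the median and the gap was not tested.

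Single directions turned as follows among 16 genes, which are the X-linked genes and those with the largest change in each role group. In the PLIER table, with or without the code as a block, changes were 0.049 for Appl, 0.036 for para, -0.15 for cac, -0.073 for eag, -0.084 for nAChRalpha1 and -0.076 for nAChRbeta1. Within the code of 4 arrays they were -0.14 for futsch, 0.094 for Appl, -0.38 for cac, -0.26 for eag, -0.16 for nAChRalpha1 and -0.18 for nAChRbeta1. Within the code of 2 they were 0.74 for para, 0.13 for Sh, -0.53 for ple, -0.19 for Ddc and -0.095 for Rop. Means over probe sets gave 0.017 for Sh, and quantile normalization gave 0.0026 for dlg1. With replicate 2 of both groups left out they were 0.064 for para, 0.082 for Sh, -0.30 for ple, -0.27 for Ddc and -0.012 for Rop. When 1 array was left out, the range was -0.13 to 0.13 for Sh, -0.041 to 0.031 for dlg1, -0.0021 to 0.096 for cac, -0.082 to 0.030 for Appl, -0.14 to 0.060 for para, -0.15 to 0.72 for Ddc, 0.086 to 0.81 for ple and -0.013 to 0.20 for Rop. Outside these 16 genes, PLIER changes turned for Shaw (-0.16), slo (0.13), Rab3 (0.089), Csp (0.059), Gad1 (-0.030) and Shal (-0.021). Turns of the genes outside the 16 in the other settings are not listed here. The cause was not tested.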

Other observations

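The large array differences of ple and Ddc were shared by ebony, a further gene of dopamine use in the cuticle. The gene e (ebony), which joins dopamine to beta-alanine and was listed here as a glia marker, read 8.39, 9.94 and 8.55 in mle/mle and 8.63, 7.41 and 8.77 in wild type, with replicate 2 highest in mle/mle and lowest in wild type. Its difference was 2.53 in replicate 2, and -0.24 and -0.22 in the other pairs. Of 10844 genes, 8 had a replicate 2 difference at least that of Ddc, and in all 8 the other pairs differed by less than 0. These were CG14664, e, CG5391, CG2444, ple, Drsl5, CG5171 and Ddc, chosen after their values were seen and with no test.

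Other genes of dopamine metabolism and cuticle colour, also named after their values were seen, differed less in replicate 2. Pu, which makes the cofactor of tyrosine hydroxylase, read 7.28, 7.30 and 7.27 in mle/mle against 8.20, 6.98 and 8.07 in wild type, lowest in wild type replicate 2 but level across mle/mle, with pairs that differed by -0.92, 0.32 and -0.80. The gene amd, a relative of Ddc with a role in the cuticle, read 8.37, 8.35 and 8.36 in mle/mle and 8.22, 8.55 and 8.15 in wild type. The colour gene y read 7.98, 8.08 and 7.86 in mle/mle and 8.01, 7.89 and 8.02 in wild type. Its replicate 2 was also highest in mle/mle and lowest in wild type, with a smaller difference of 0.19. The gene t, whose enzyme reverses the ebony reaction, read 6.68, 6.64 and 6.79 in mle/mle and 6.52, 6.74 and 6.63 in wild type.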
